A study of Homo sapiens with 3 samples.

Results

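Immediate-early-high cells were the cells of the top channels with the largest share of RNA from 6 immediate early genes, FOS, FOSB, JUN, JUNB, EGR1 and IER2. Among cells with at least 5000 UMIs (unique molecular identifiers, each counting 1 captured RNA molecule) and no more than 20% mitochondrial (MT-) UMIs, they were the top 10% of their own library by that share. The stretched top library gave 1719 such cells of 17182 that passed these limits, and the not stretched top library gave 1487 of 14870. Together they were 3206 of 32052 passing cells, in a series of 54788 barcodes. Because these 6 genes chose the cells, their levels, and the levels of all other genes read from the same cells, are a description and carry no test.

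The cells were HCT116 H2B-GFP, a human colorectal carcinoma line with a fluorescent histone, grown in a 2-channel organ-on-chip. The stretched group, labelled (+peristalsis), had been exposed to peristaltic stretch, with a stretch day of 6 recorded. Its top channel held the non-invaded cells. The not stretched group, labelled (-peristalsis), held the non-invaded cells of the top channel of chips without stretch. Another library, of invaded cells from the bottom channel under stretch, is set beside them in a few places. All 3 were taken off the chip with 0.25% trypsin for 5 min at 37 °C, repeated 3 times, and sorted for GFP before droplet 3′ libraries were made. Each group was 1 library of 1 line, so no difference between libraries has a replicate check, and neither the number of chips behind a library nor the culture time of the not stretched chips is given in the sources used here. The stretched and not stretched top libraries held 25169 and 26106 barcodes, against a target of 10000 droplets in the labels. No count of genes given for the top libraries moved by over 1.5 times without the 5% of cells with most UMIs.

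Immediate early genes are transcribed within minutes of a stimulus without new protein synthesis, and their mRNAs are short-lived. Growth factors acting through the ERK pathway, serum, mechanical load, stress and enzymatic dissociation of tissue are all known to induce them. FOS, FOSB, JUN and JUNB encode subunits of the transcription factor AP-1, EGR1 encodes a zinc finger factor that binds GC-rich sites, and IER2 encodes a nuclear protein of the same early wave.

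The immediate-early-high cells kept the epithelial profile of the line. EPCAM, the epithelial adhesion molecule, stood at 368 CPM (UMIs of a gene summed over cells, scaled to a fixed total of 1000000 UMIs) in immediate-early-high cells and 392.2 CPM in the rest of the stretched library. In the not stretched library EPCAM stood at 371 and 390 CPM in the same order. Of 22 epithelial genes, 20 reached 10 CPM in each of these 4 sets of cells. Endothelial markers summed to 99.8 against 107 CPM in the stretched and 131 against 130.04 CPM in the not stretched library, nearly all of it EGFL7, and CLDN5 was at 0 UMIs in immediate-early-high cells of both. Leukocyte markers summed to 12.9 to 15.3 CPM over the 4 sets. Fibroblast markers summed to 14.4 against 9.77 CPM with stretch and 19.3 against 12.0 CPM without, mostly COL1A1 (8.62 against 4.73 CPM; 13.8 against 7.28 CPM), with 6 and 3 of 11 markers at 0 UMIs in immediate-early-high cells of the stretched and not stretched library. Their part in the results was not tested.

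Immediate-early-high cells were shallower than the rest of their library. A share made of few UMIs scatters more in shallow cells, so the rule can favour such cells by counting alone. How much of the depth difference this makes was not tested. They had a median of 8117 UMIs against 10660 in the stretched library and 9224 against 12550 in the not stretched library. Their median MT- share was 12.1% against 10.2%, and 11.2% against 9.71%, in the same order. Summed UMIs came to 15545646 in immediate-early-high cells and 185939905 in the rest of the stretched library, and to 15703752 and 190868016 in the not stretched library. The 2 top libraries shared 64 cell barcodes, of which 8 were immediate-early-high in the stretched and 11 in the not stretched library. No count of genes given here moved by over 1.5 times without those barcodes.

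The share of UMIs that chose the cells varied widely. In the stretched library its median was 1863 CPM of the cell's own UMIs in immediate-early-high cells (range 1519 to 5580) and 608 in the rest. In the not stretched library it was 2498 (range 2070.0 to 32902) against 849. The 5 cells just inside the limit had 1518.6 to 1519.4 CPM and the 5 just outside 1517.6 to 1518.2 in the stretched library. In the not stretched library they had 2070.0 to 2072.1 inside and 2068.1 to 2069.0 outside. At the other end, 427 cells of the stretched library (2.49%) and 169 of the not stretched library (1.14%) had no UMI of any of the 6 genes.

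The same limit did not sit at the same level in the libraries. The not stretched library's limit was passed by 569 cells of the stretched top library (3.31%, Clopper-Pearson 95% interval 3.05 to 3.59) against 10.0% of the not stretched one. The stretched library's limit was passed by 22.6% of not stretched cells (21.9 to 23.3). In the bottom channel, 11.2% of cells (9.69 to 12.8) passed the not stretched limit. With every cell thinned to 5000 UMIs, the 6 genes had a median of 3 UMIs a cell in the stretched top library, 5 in the not stretched top library and 5 in the bottom library.

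FOS, the AP-1 subunit that pairs with JUN proteins, stood at 469 CPM in immediate-early-high cells and 122 CPM in the rest of the stretched library, and at 596 and 171 CPM in the not stretched library. FOSB, its close relative, stood at 114 against 37.2 CPM and at 156 against 53.9 CPM. JUN, the partner subunit, stood at 139 against 40.9 CPM and at 202 against 53.2 CPM. All 3 were lower in the stretched than in the not stretched library, in immediate-early-high cells and in the rest alike. JUNB, which can also restrain JUN activity, stood at 340.4 against 116 CPM with stretch and at 498 against 168 CPM without. EGR1 stood at 239 against 69.6 CPM and at 304 against 95.5 CPM, and IER2 at 664 against 254 CPM and at 914 against 342 CPM. The plot of the 6 rule genes shows these values with their counting error.

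**Figure D1:**
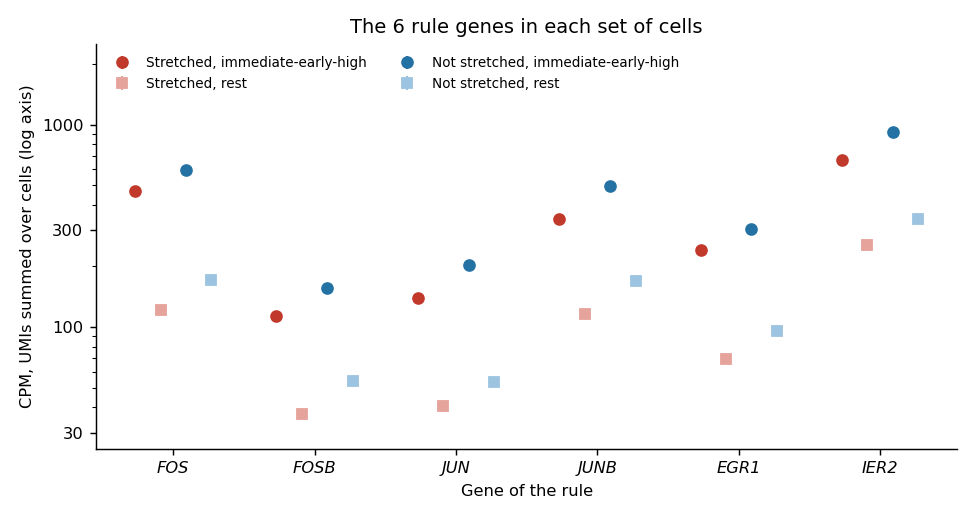
CPM of each of the 6 rule genes (log axis) in immediate-early-high cells (circles) and the rest (squares) of the stretched (red) and not stretched (blue) top libraries; bars, mostly smaller than the symbols, are exact Poisson 95% intervals of counting error. FOS stood at 469 and 122 CPM in the stretched and at 596 and 171 CPM in the not stretched library.

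Few molecules qualified a cell. The median immediate-early-high cell held 16 UMIs of the 6 genes in the stretched library (range 8 to 113) and 25 in the not stretched library (range 11 to 286), from a median of 5 of the 6 genes in both. IER2 gave the most UMIs in 854 of the 1719 stretched and 812 of the 1487 not stretched immediate-early-high cells, FOS in 554 and 404, JUNB in 202 and 182, and EGR1 in 70 and 49. In 307 stretched (17.9%) and 157 not stretched cells (10.6%) 1 gene gave most of the UMIs that qualified the cell. Over all passing cells, thinned to 5000 UMIs, Spearman correlations of the 15 gene pairs ran between 0.07 (FOSB with JUNB) and 0.19 (FOS with IER2) in the stretched and between 0.09 and 0.25 in the not stretched library, for the same pairs at each end. These are weak, and counts of so few UMIs limit them. The highest cell of the not stretched library was unlike the others: among 8571 UMIs it had 141 of IER2 and 134 of JUNB but 4 of JUN, 2 of FOS, 1 of FOSB and none of EGR1, and its share of 32902 CPM was followed by 11287 in the next cell.

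Choosing cells by a count and then reading the same count inflates it, so each gene was also read where it had not chosen the cells. With the top 10% chosen on the other 5 genes, FOS was 2.46-fold (2.39 to 2.54) above the rest in the stretched and 2.58-fold (2.51 to 2.64) in the not stretched library, against 3.85-fold and 3.49-fold by the rule itself. JUN was 2.51-fold and 2.94-fold above the rest in this reading, FOSB 2.26-fold and 2.29-fold, EGR1 2.49-fold and 2.54-fold, JUNB 2.10-fold and 2.296-fold, and IER2 1.82-fold and 2.05-fold. When each cell's UMIs were split at random, at even odds, into 2 parts, 1 choosing the cells and the other being read, the 6 genes summed to 1554 against 675 CPM (2.301-fold) in the stretched and 2298 against 918 CPM (2.50-fold) in the not stretched library. By the rule the sums were 1966 against 640.3 CPM (3.07-fold) and 2670 against 883 CPM (3.02-fold). Of the cells chosen on 1 such part, 71.3% and 74.5% were immediate-early-high by the rule. All 6 genes thus stayed above the rest when others, or other molecules of the cell, did the choosing, by less than the rule's own values.

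**Figure D2:**
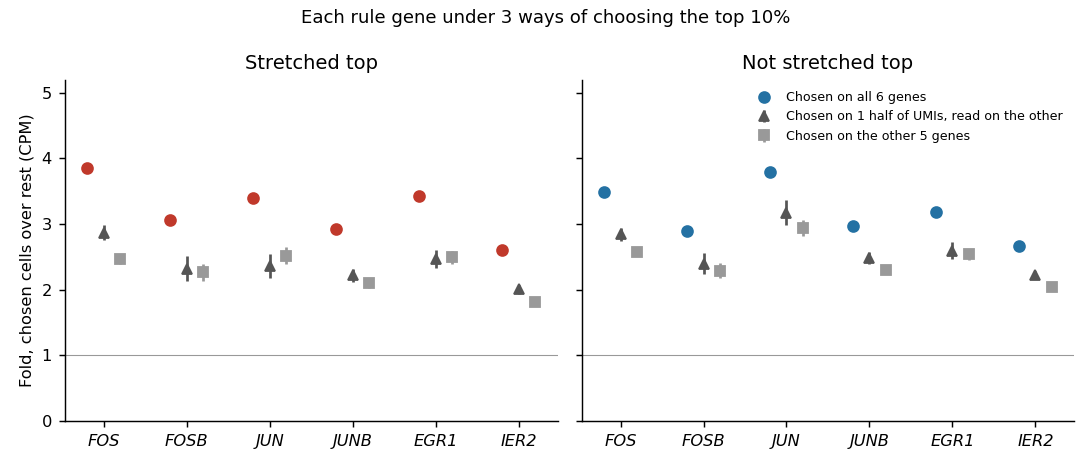
Fold of each rule gene, chosen cells over the rest (CPM ratio), in the stretched (left) and not stretched (right) top library, with the top 10% chosen on all 6 genes (coloured circles), on 1 of 2 random parts of each cell's UMIs and read on the other (triangles), or on the other 5 genes (squares); bars are exact conditional binomial 95% intervals. FOS was 3.85-fold above the rest by the rule and 2.46-fold when chosen on the other 5 genes in the stretched library.

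Promoters of immediate early genes are known to hold short sites for factors that signalling activates: the CArG box of serum response factor, the cyclic AMP response element (CRE), the AP-1 site and the GC-rich EGR site. RefSeq windows (GRCh38.p14) from 250 bases before to 50 after the start were found for 18 of 22 genes looked up, the 6 rule genes, the 12 highest other genes in common (below), and up to 4 each of the other immediate early and feedback lists. Both strands were searched for the CArG box, for TGACGTCA (CRE), for TGANTCA (AP-1), for GCG then any base then GGGCG (EGR), and for a TATA box spelled TATAAA. Among all 34943 windows, 1.3% held a CArG box, 1.84% a CRE, 7.72% an AP-1 site, 9.41% an EGR site and 11.6% a TATA box. Only the first listed window of each gene was searched, and windows at other starts were not. In these windows EGR1 alone of the 18 held CArG boxes, at 105 and 83 bases before the start. DUSP1 alone held a CRE, at 125 bases before. BTG2 and DUSP2 held 2 EGR sites each and EGR1 and SPRY4 1 each, and FOS, FOSB, JUNB and DUSP1 held a TATA box about 30 bases before the start. No AP-1 site of this spelling lay in any of the 18, which says only that these letters were not in these windows. A window for each of the CArG, CRE and EGR motifs is shown, with CArG, CRE and EGR matches in capitals. EGR1 is at chr5:138465229-138465528 (plus strand), DUSP1 at chr5:172771146-172771445 (minus strand) and BTG2 at chr1:203305269-203305568 (plus strand).
EGR1: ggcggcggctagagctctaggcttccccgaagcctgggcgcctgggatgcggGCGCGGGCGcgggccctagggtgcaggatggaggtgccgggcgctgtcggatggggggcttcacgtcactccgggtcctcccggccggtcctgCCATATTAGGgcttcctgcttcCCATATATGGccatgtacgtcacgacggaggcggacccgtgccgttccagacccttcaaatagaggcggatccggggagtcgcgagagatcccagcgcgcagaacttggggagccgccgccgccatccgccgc
DUSP1: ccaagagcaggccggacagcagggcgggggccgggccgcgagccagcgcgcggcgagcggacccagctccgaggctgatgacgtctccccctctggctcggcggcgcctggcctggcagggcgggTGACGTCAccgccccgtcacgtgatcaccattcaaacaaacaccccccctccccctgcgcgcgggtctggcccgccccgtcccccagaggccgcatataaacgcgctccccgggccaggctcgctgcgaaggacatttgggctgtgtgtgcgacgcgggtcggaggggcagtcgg
BTG2: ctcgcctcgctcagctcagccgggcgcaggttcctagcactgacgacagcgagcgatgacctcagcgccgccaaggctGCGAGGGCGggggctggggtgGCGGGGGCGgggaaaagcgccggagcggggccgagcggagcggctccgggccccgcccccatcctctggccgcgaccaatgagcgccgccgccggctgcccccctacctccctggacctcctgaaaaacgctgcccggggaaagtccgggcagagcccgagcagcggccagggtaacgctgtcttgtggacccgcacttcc

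Outside the 6 genes, 151 genes were at least 1.5-fold higher and 233 at least 1.5-fold lower in immediate-early-high cells than in the rest of the stretched library (1.7% and 2.62% of 8881 genes with at least 10 CPM in either set; 1.77% and 2.62% with the 6 genes). In the not stretched library 219 were higher and 439 lower (2.34% and 4.7% of 9342; 2.41% and 4.7% with the 6 genes). With MT- and ribosomal protein genes left out of the totals the split turned to 290 higher and 181 lower with stretch and 380 and 373 without, the 6 genes included. These are of 9965 and 10271 genes, as smaller totals lift more genes over 10 CPM. Of them, 157 higher and 169 lower with stretch, and 225 and 344 without, were also called by the main choice. Ratios are log2 of CPM with 1 CPM added, which understates the change of low genes. Both libraries had 121 higher genes in common, the 6 included, and 204 lower ones (1.37% and 2.3% of 8862), and no gene lay past 1.5-fold in opposite directions. The 121 were 77.1% of the stretched and 53.8% of the not stretched higher genes, and the 204 were 87.6% and 46.5% of the lower ones. Across 8856 genes without the 6, the ratios of the 2 libraries had Pearson's r = 0.91 and Spearman's rho = 0.90, a description across genes, which are not independent replicates and here share the choice of cells by the same 6 genes.

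Of the 12 highest genes in common, 10 were on a list of other immediate early genes. NR4A3, 1 of 3 related orphan nuclear receptors, stood at 22.8 against 5.07 CPM with stretch (4.49-fold, 95% interval 3.97 to 5.08) and at 26.7 against 6.54 CPM without (4.08-fold, 3.64 to 4.56). It is encoded on chromosome 9 (99821855 to 99866891, plus strand). Its relatives NR4A1 (82.3 against 36.6 CPM; 107 against 45.6 CPM) and NR4A2 (223 against 106 CPM; 297 against 126 CPM) were 2.25-fold and 2.11-fold higher with stretch and 2.34-fold and 2.36-fold without. CYR61, a secreted matrix protein and a target of YAP, stood at 35.6 against 14.3 CPM and 58.1 against 22.1 CPM. ATF3, a stress-induced transcription factor, stood at 54.4 against 22.8 CPM and 71.0 against 29.8 CPM. The phosphatases that switch off MAP kinases were among them: DUSP1 at 53.01 against 23.4 CPM and 69.9 against 28.7 CPM, and DUSP2 at 56.3 against 25.05 CPM and 90.7 against 37.6 CPM. So were 3 other brakes on signalling or growth, each about 2-fold higher or more: SOCS3, which inhibits cytokine receptors (26.6 against 12.7 CPM; 32.9 against 14.5 CPM), ZFP36, which degrades AU-rich mRNAs (135 against 67.6 CPM; 214 against 95.2 CPM), and BTG2, an antiproliferative gene (39.6 against 19.2 CPM; 55.8 against 22.4 CPM). Outside this family the 12 held GP6, known as a platelet collagen receptor gene (15.8 against 5.96 CPM; 14.5 against 6.15 CPM), and LRP1B, a large lipoprotein receptor relative (74.2 against 35.0 CPM; 109 against 53.1 CPM). All 12 stayed past 1.5-fold in both libraries under each alternative run on single genes.

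**Figure D3:**
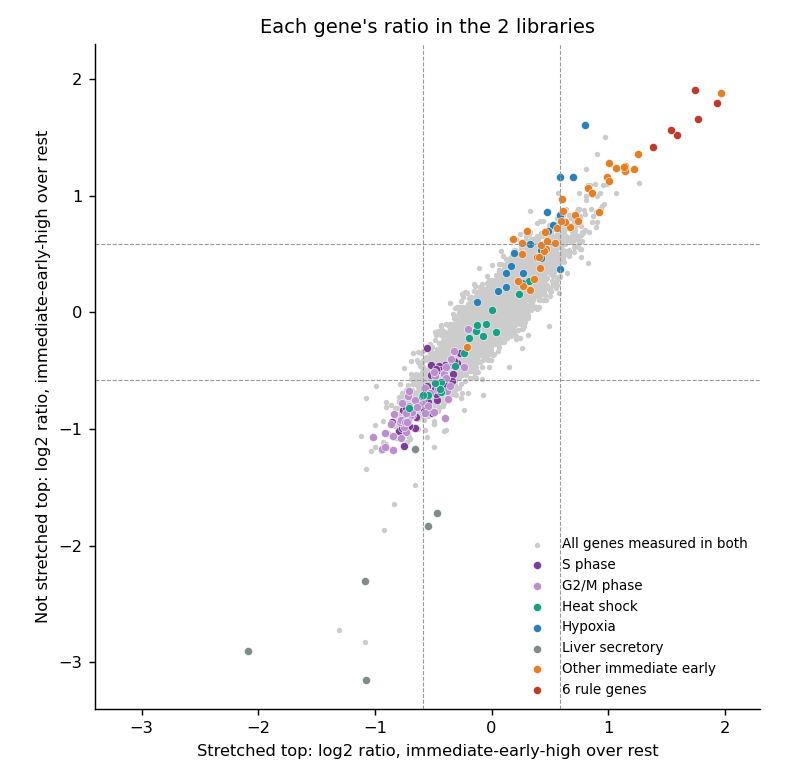
Log2 ratio of immediate-early-high cells over the rest for each gene with at least 10 CPM, in the stretched (horizontal) and not stretched (vertical) top library; dashed lines mark 1.5-fold, and gene lists are coloured. The 6 rule genes and 20 of the other immediate early genes lie past 1.5-fold at the upper right. S and G2/M genes lie at the lower left and liver secretory genes at the bottom. Pearson's r was 0.91 over 8856 genes.

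Of the 44 genes of that list, 20 of 39 with at least 10 CPM were higher with stretch and 28 of 40 without, none was lower in either, and all 20 were among the 28. The median log2 ratio of the list was 0.60 with stretch and 0.73 without, against 0.01 and −0.01 for all genes. This median kept its sign under every alternative, between 0.47 and 0.70 with stretch and between 0.62 and 0.92 without, the split of each cell's UMIs included. MYC, a growth gene of the same list picked after its value was seen, lay the other way without passing 1.5-fold (81.6 against 94.5 CPM; 81.4 against 100.3 CPM).

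Feedback genes of the MAP kinase pathway formed a smaller group. Of 23 tested, the same 6 were higher in both libraries, among them DUSP6, the ERK-directed phosphatase (123 against 70.8 CPM; 151 against 81.4 CPM), DUSP5, SPRY4, ETV1 and IER5L. With the phases weighted equally, 2 genes of the list with stretch and 5 without were past 1.5-fold upward. The list median was 0.12 with stretch and 0.28 without. CCND1, cyclin D1, was lower with stretch (161 against 248 CPM) and stood at 164 against 244 CPM without. EREG and AREG, growth factor genes of the list chosen after their values were seen, stood at 562 against 537 CPM and 1055 against 844 CPM with stretch, short of 1.5-fold.

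Some genes of other stimulus-response lists passed 1.5-fold as well. These lists overlap: IER3, ID1, KLF10 and BTG2 are also on the list of other immediate early genes and are counted in both. Among 9 tested NF-kB and inflammatory genes, NFKBIZ (21.6 against 10.6 CPM; 27.8 against 12.6 CPM), IER3 and BCL3 were higher in both libraries, CXCL8 was past it with stretch (11.2 against 4.18 CPM) and under the 10 CPM minimum without (5.73 against 2.32 CPM), and NFKBIA was past it without stretch (difference between libraries not tested). The list median was 0.46 and 0.35. Of 12 tested ID, BMP and TGF-beta genes, 4 were higher with stretch and 6 without, among them the ID genes, which block differentiation factors: ID1 stood at 1029 against 628 CPM and 1371 against 771 CPM, and ID3 at 643 against 352 CPM and 993 against 560 CPM. Of 22 tested p53 target genes the same 4 were higher in both, BTG2, the apoptosis inducer BBC3, TP53INP1 and GDF15, a secreted stress factor (163 against 92.7 CPM; 209 against 88.6 CPM). With equal phase weights the ID, BMP and TGF-beta list had 2 genes past 1.5-fold upward with stretch and 3 without, and the p53 list 2 in each. With equal depth weights the first list had 1 and 5 and the p53 list 3 in each. CDKN1A, a cell cycle inhibitor and defining p53 target picked after its value was seen, stood at 74.9 against 72.9 CPM and 72.8 against 62.2 CPM.

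Interferon-stimulated genes had a median of 0.42 with stretch and 0.36 without, with 7 and 5 of 28 past 1.5-fold. BST2, the antiviral membrane protein tetherin, stood at 132 against 68.8 CPM and 330 against 162 CPM, and STAT2, of the interferon signalling complex, at 37.2 against 24.4 CPM and 50.6 against 32.6 CPM. IFITM1 was higher in both too, but shares its 3′ end with a neighbour on the same strand, so its counts are uncertain. With equal phase weights 3 genes of the list with stretch and 4 without were past 1.5-fold. Antigen presentation genes had medians of 0.32 and 0.31, with 3 of 12 past 1.5-fold with stretch and 1 of 12 without.

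Hypoxia genes had a median of 0.43 with stretch, where 5 of 21 were higher, and of 0.51 without, where 8 of 22 were. ADM, the vasodilator peptide adrenomedullin, stood at 33.8 against 20.5 CPM and 80.7 against 35.5 CPM, and ANKRD37, a HIF-1 target, at 14.1 against 7.70 CPM and 43.2 against 13.6 CPM. Equal phase weights took the medians to 0.25 and 0.31 and the counts to 1 and 3. VEGFA and SLC2A1, defining hypoxia targets chosen after their values were seen, stood at 21.6 against 19.8 CPM and 129 against 124 CPM with stretch, and at 28.97 against 24.9 CPM and 105 against 93.0 CPM without.

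Cytoskeletal genes of SRF and its MRTF cofactors, another arm of the response to mechanical load, did not rise as a group. Of 22 tested, 1 was higher in both libraries and none lower, with medians of −0.08 and −0.10. That gene was VCL, which encodes the focal adhesion protein vinculin, at 288 against 149 CPM with stretch (1.93-fold, 1.87 to 1.99) and 274 against 145 CPM without (1.88-fold, 1.82 to 1.95). VCL was past 1.5-fold in both libraries under each alternative run on single genes. ACTB stood at 958 against 1296 CPM and 947 against 1308 CPM. Of 12 YAP/TAZ targets only CYR61, also counted among the other immediate early genes, was higher in both libraries. ANKRD1 and CTGF, both well-known targets chosen after their values were seen, had under 3 CPM in all 4 sets of the top libraries.

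Heat shock genes lay lower, not higher. None of 19 was past 1.5-fold upward, 3 were lower with stretch and 8 without, and the medians were −0.24 and −0.35. The mitochondrial chaperone gene HSPD1 stood at 725 against 1090 CPM with stretch (1.502-fold lower, 1.47 to 1.53) and 563 against 924 CPM without (1.64-fold lower, 1.61 to 1.68). HSPH1, an HSP110 chaperone, stood at 66.8 against 101 CPM and 40.9 against 67.8 CPM. HSPE1 was lower in both too, with a 3′ end shared with a same-strand neighbour, which leaves its counts uncertain. The stress-inducible HSPA1B, chosen after its value was seen and nearly identical in sequence to HSPA1A, stood at 31.2 against 31.1 CPM and 45.7 against 45.2 CPM. With equal phase weights the heat shock medians were −0.18 and −0.23 and no gene of the list was past 1.5-fold. Summed over the list, heat shock CPM ran from 15740 in the lowest to 10574 in the highest of 10 bins of stretched cells by share, and from 14321 to 8214 in the not stretched library. Integrated stress response and unfolded protein response lists had medians between −0.11 and 0.02.

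Cell cycle genes lay lower in immediate-early-high cells. Of 54 G2/M genes 30 were lower with stretch and 41 without, and of the S phase genes 17 of 40 and 30 of 41, with none higher. CCNB1, the mitotic cyclin, stood at 75.3 against 151 CPM (2.01-fold lower, 1.89 to 2.13) and 66.7 against 150.1 CPM (2.25-fold lower, 2.12 to 2.39). PLK1 and CDC20, a mitotic kinase and an activator of the anaphase-promoting complex, stood at 20.4 against 42.8 CPM and 51.2 against 105 CPM with stretch, and at 21.5 against 50.1 CPM and 55.6 against 118 CPM without. MCM10, a replication factor, stood at 15.6 against 31.1 CPM and 14.0 against 33.3 CPM. List medians were −0.64 and −0.80 for G2/M and −0.57 and −0.76 for S phase. With equal weights of 5 bins of cells by UMIs, 4 of 53 G2/M genes with stretch and 17 of 54 without were lower, and 4 of 40 and 16 of 41 S phase genes. The medians were then −0.37 and −0.51 for G2/M and −0.41 and −0.55 for S phase.

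Phase calls, made from these 2 lists after thinning each cell to 5000 UMIs, followed them. G1 took 70.8% of immediate-early-high cells (Clopper-Pearson 95% interval 68.6 to 72.9) and 44.4% of the rest (43.6 to 45.2) of the stretched library, and 76.8% (74.6 to 78.9) and 46.9% (46.0 to 47.7) in the not stretched library. S phase took 10.4% against 20.8% and 8.14% against 20.7%, and G2/M 18.8% against 34.9% and 15.1% against 32.5%. The intervals cover counting error of cells in 1 library each. Put the other way, 15.1% and 15.4% of G1 cells were immediate-early-high, against 5.25% and 4.19% of S phase cells and 5.67% and 4.90% of G2/M cells.

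Cells called G1 held fewer UMIs, and so did immediate-early-high cells, so the calls were compared within bins of depth. Depth within a bin was not matched, and the deepest bin with stretch ran from 15611 to 59528 UMIs. Over 5 equal bins of cells by UMIs, the immediate-early-high share was 19.1% in the shallowest and 2.94% in the deepest bin with stretch, and 18.7% and 3.33% without, going down at each step. The rule can favour shallow cells by counting alone, so this fall is a description. G1 was more frequent in immediate-early-high cells than in the rest in all 5 bins of both libraries, at 84.9% against 70.7% in the shallowest and 47.5% against 25.03% in the deepest bin with stretch. Without stretch it was 89.6% against 73.1% and 45.5% against 24.2%. The plot of G1 calls by depth shows the gap in each bin. Weighting the bins equally left 101 higher and 55 lower genes with stretch and 117 and 171 without. Among cells with at least 10000 UMIs, 121 genes were higher and 51 lower with stretch (of 8908), and 193 and 172 without (of 9321). Among cells with at most 10% MT- UMIs it was 181 and 46 (of 8922), and 252 and 173 (of 9296). Under both limits higher genes thus outnumbered lower ones, unlike by the main choice.

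**Figure D4:**
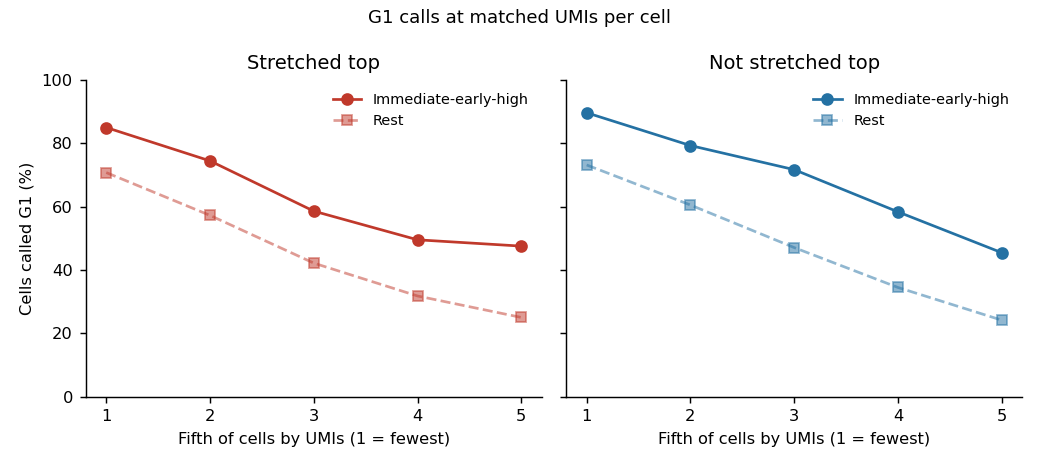
Percent of cells called G1 (cells thinned to 5000 UMIs) among immediate-early-high cells (solid, circles) and the rest (dashed, squares) in 5 equal bins of cells by UMIs, for the stretched (left) and not stretched (right) top library. In every bin G1 is more frequent in immediate-early-high cells, from 84.9% against 70.7% to 47.5% against 25.03% with stretch.

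The immediate early difference was present within each phase. Within G1 cells, the median log2 ratio of the other immediate early genes was 0.48 with stretch and 0.61 without; within S phase cells it was 0.58 and 0.64, and within G2/M cells 0.68 and 0.86. With G1, S and G2/M weighted equally, 80 genes were higher and 41 lower with stretch, and 103 and 56 without, so most of the genes called lower were not called then. By construction the S and G2/M lists, which made the calls, had medians near 0 in that reading (−0.04 and 0.00 with stretch; −0.06 and −0.02 without).

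The same genes were followed over all cells, not the top 10% alone. With each library's cells ordered by share into 10 equal bins, the other immediate early genes summed to 2054 CPM in bin 1, 2871 in bin 5, 3793 in bin 9 and 4529 in bin 10 with stretch, and to 2118, 3218, 4545 and 5646 CPM without. NR4A3 ran 0.92, 3.92, 13.8 and 22.8 CPM, and 1.03, 5.05, 16.2 and 26.7 CPM, over the same bins. NF-kB and inflammatory genes summed to 585 in the lowest and 1261 CPM in the highest bin with stretch, and to 585 and 1401 CPM without. CCNB1 ran 211, 152, 101 and 75.3 CPM with stretch and 253, 137, 86.9 and 66.7 CPM without. G1 cells made up 32.4% of the lowest and 70.8% of the highest bin with stretch, and 29.3% and 76.8% without.

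**Figure D5:**
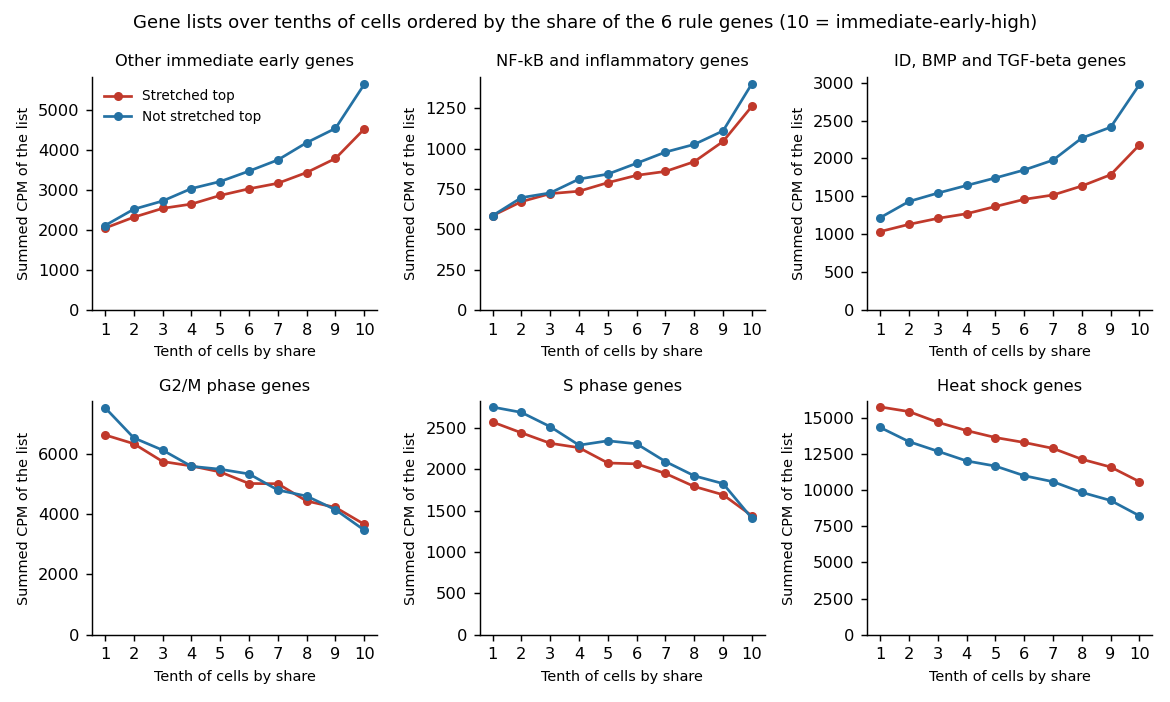
Summed CPM of 6 gene lists (vertical, from 0) in 10 equal bins of cells ordered by their share of the 6 rule genes, 1 lowest and 10 the immediate-early-high cells, in the stretched (red) and not stretched (blue) top library. Other immediate early genes rise over the bins to 4529 and 5646 CPM, and G2/M, S phase and heat shock genes go down in both libraries.

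A few of the lowest genes were secretory. TTR, APOA1, APOA2, FABP1 and AGR2, genes of secretion or lipid transport typical of liver or gut, were among the 12 lowest in common: APOA1 stood at 54.0 against 115 CPM with stretch (2.14-fold lower, 2.00 to 2.29) and 29.5 against 149 CPM without (5.06-fold lower, 4.62 to 5.56). Cells with at least 5 UMIs of APOA1, APOA2, FABP1 and TTR at 5000 UMIs made up 1.05% of immediate-early-high cells and 2.29% of the rest with stretch, and 0.403% and 2.46% without. Because APOA1, APOA2, FABP1 and TTR define those cells, leaving the cells out lowers these genes by construction; AGR2, which does not define them, then had log2 ratios of 0.080 with stretch and −0.32 without, against −1.31 and −2.73 with them, and leaving the cells out changed neither library's count of higher or lower genes by over 1.5 times. GAL, which encodes the neuropeptide galanin, stood at 86.7 against 189 CPM and 101 against 212 CPM and stayed past 1.5-fold under each alternative run on single genes.

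Stretched and not stretched immediate-early-high cells were then set against each other. Of 9150 genes, 30 (0.328%) lay 1.5-fold or more above and 184 (2.01%) as far below the not stretched level, and among the rest of the same libraries 16 (0.176%) and 64 (0.703%) of 9104. Of the 30 and 184, 12 and 37 were past 1.5-fold the same way among the rest. The median of all genes was −0.13 in immediate-early-high cells and −0.17 in the rest, so ratios are to be read relative to it. TMM scaling, which moves this median to near 0, gave 82 higher and 62 lower in immediate-early-high cells and 75 and 10 in the rest. The immediate-early-high sums hold far fewer UMIs than those of the rest, so counting error is larger there.

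Each library's own limit on the 6 rule genes chose its cells, so their difference between the immediate-early-high sets is a description that the rule partly fixes. Their log2 differences were between −0.55 (JUNB) and −0.34 (FOS) in immediate-early-high cells, with a median of −0.46, and between −0.52 (JUNB and FOSB) and −0.37 (JUN) in the rest. With the not stretched limit used in both libraries the median in immediate-early-high cells was −0.14. Other immediate early genes had medians of −0.32 in immediate-early-high cells, with 8 of 40 lower, and −0.20 in the rest, with 2 of 36 lower. Under TMM scaling 2 and 0 were lower and the medians were −0.19 and −0.03. Over 18 settings these medians ran from −0.36 to −0.089 in immediate-early-high cells and from −0.23 to −0.020 in the rest. The immediate-early-high sets were cut at different levels of the rule genes, so this difference is a description too. Interferon-stimulated genes had medians of −0.31 and −0.41 in the same order. BST2 was 2.50-fold lower (2.38 to 2.63) with stretch in immediate-early-high cells and 2.35-fold lower in the rest, and DDIT4, an mTORC1 inhibitor gene, 2.67-fold (2.47 to 2.88) and 2.23-fold lower.

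Hypoxia genes had medians of −0.32 in immediate-early-high cells and −0.15 in the rest, with the difference between the sets not tested. TMM scaling turned the median of the rest to 0.02 and left −0.20 in immediate-early-high cells. Over 18 settings the medians ran from −0.18 to 0.027 in the rest and from −0.37 to −0.080 in immediate-early-high cells. The unequal limits on the rule genes apply here too. ADM, ANKRD37, ANGPTL4 and SLC2A3 were lower with stretch in both sets, PDK1 and PFKFB4 in immediate-early-high cells alone by this threshold. Under TMM scaling 4 of 22 were lower in immediate-early-high cells, and 2 of 21 lower and 1 higher in the rest. ANKRD37 was 3.06-fold lower (2.62 to 3.57) in immediate-early-high cells and 1.76-fold lower in the rest, ADM 2.39-fold (2.16 to 2.65) and 1.73-fold, and ANGPTL4, a lipase inhibitor gene, 2.301-fold (2.03 to 2.61) and 1.55-fold. Within libraries, these 3 genes had log2 ratios over the rest of 0.80 (ANKRD37), 0.70 (ADM) and 0.59 (ANGPTL4) with stretch and 1.60, 1.16 and 1.16 without. These ratios restate the same CPM values and are not a separate reading. Higher with stretch were ATOX1, a copper chaperone gene (167 against 89.5 CPM), CITED1, whose 3′ end overlaps another gene, and the secretory genes FABP1, APOA2, APOC3 and APOE. Liver secretory genes summed to 164 CPM with and 76.3 CPM without stretch in immediate-early-high cells, but to 328 and 371 CPM in the rest. The APOA1-high cells described above made up 1.05% of stretched and 0.403% of not stretched immediate-early-high cells, and their part in this was not tested. Heat shock genes had medians of 0.11 in immediate-early-high cells and 0.04 in the rest, with HSPH1, HSPE1, HSP90AA1 and CHORDC1 past 1.5-fold upward in immediate-early-high cells and 1 gene in the rest. Under TMM scaling 5 and 4 of 19 were.

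The same rule in the bottom library gave 164 of 1637 cells. There the 6 genes were 2.60-fold (IER2) to 3.68-fold (FOS) above the rest, and the other immediate early genes had a median of 0.51 with 14 of 37 higher (2.2% of all 8541 tested genes were higher and 0.468% lower). NR4A3 stood at 9.45 against 3.48 CPM and DUSP1 at 63.9 against 24.6 CPM. The cell cycle difference of the top libraries did not appear: G1 took 25.6% of these cells (19.1 to 33.0) against 26.4% of the rest (24.2 to 28.7), and S and G2/M genes had medians of −0.01 and 0.03 with none past 1.5-fold. VCL stood at 165 against 115 CPM and LRP1B at 34.6 against 39.8 CPM. Cells of this library were much deeper, with a median of 33538 UMIs in the immediate-early-high cells and 46397 in the rest, and its difference from the top libraries was not tested.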

How the data were processed

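Single-cell 3′ RNA was measured in 3 libraries. The values the authors deposited are UMI counts (Cell Ranger 7.0.0, per the file headers; hg38, per the submitters' processing notes), not normalized, over 19912 features whose annotation version is not given in the sources used here. UMIs were summed over the cells of a set and scaled to CPM. Log2 ratios used 1 CPM added and genes with at least 10 CPM in either set, and were called at 1.5-fold with no test, as each group is 1 library and the cells were chosen on the same data. List medians cover genes averaging 1 CPM or more. The cells, the lists and the naming rule (the largest ratios of each list and of each comparison, up to 12) were chosen with earlier results of these data known. Genes outside that rule that complete a count (such as CXCL8, PDK1, PFKFB4, SLC2A3 and HSP90AA1) were named after their values were seen. Intervals are exact (Poisson, Clopper-Pearson or conditional binomial, 95%) and cover counting error only. Apart from these intervals, a floor of 3 counts was set for a count of 0. It is 0.193 and 0.191 CPM in the stretched and not stretched immediate-early-high cells. Phases were called with scanpy 1.11.5 on cells thinned to 5000 UMIs. No doublet caller was run and no cells were removed as doublets; leaving out the 5% of cells with most UMIs was an alternative. Barcodes under 1000 UMIs had 598 CPM of the 6 genes in the stretched and 718 CPM in the not stretched top library. Whether these barcodes hold free RNA or shallow cells was not tested. Alternatives were other limits on cells and genes, other choices of the cells, splitting each cell's UMIs, thinning, weights by phase or depth, TMM (edgeR 4.0.16, R 4.3.3), median of ratios and other totals, and 0.1 or 5 CPM added; leaving out APOA1-high cells or shared barcodes was added after the data were seen. Gene positions came from GENCODE release 29 on the same build, and Python 3.11.15, numpy 2.4.6, scipy 1.17.1, pandas 2.3.3 and matplotlib 3.10.9 were used. Simulated counts with known folds tested the ratios. Some items are not reported here.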

Additional observations from a re-analysis of the deposited data

How the results depend on the processing

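No paired analysis was possible because each group has 1 library. Depth limits single cells most: the cells that qualify hold a median of 16 and 25 UMIs of the 6 genes. Medians of the other immediate early genes kept their sign under every alternative. Counts of genes are given as higher and lower for immediate-early-high cells over the rest with stretch (157 and 233 by the main choice), the same without stretch (225 and 439), and stretched over not stretched immediate-early-high cells (30 and 184). The summed 6 genes had log2 ratios of 1.62 with and 1.59 without stretch, and G1 took 70.8% and 76.8% of immediate-early-high cells. G1 values below are of immediate-early-high cells alone and are not to be set against the rest by the main choice. G1 of the rest also went down with depth, from 70.7% in the shallowest to 25.03% in the deepest bin with stretch. Without stretch it went from 73.1% to 24.2%. Counts that stayed within 1.5 times are not given. At 2-fold they were 18 and 11, 36 and 48, and 3 and 14. At 5 CPM added they were 91 and 140 with stretch, 129 higher without, and 57 lower between libraries. At a minimum of 1 CPM they were 276 higher with stretch, 365 and 669 without, and 114 and 487 between libraries; at 50 CPM 57 and 85, 88 and 170, and 16 and 27. TMM gave 82 and 62 between libraries and median of ratios 81 and 62, with sums of 1.59 and 1.58 with stretch. At 10000 UMIs, 51 were lower with and 172 without stretch, G1 was 51.1% and 61.7%, and sums were 1.47 and 1.49. At 10% MT- UMIs, 46 and 173 were lower, 47 were higher between libraries, and G1 was 52.7% and 60.5%. Equal bins of UMIs gave 101 and 55, and 117 and 171, with sums of 1.58 and 1.56. Equal phases gave 80 and 41, and 103 and 56. Choosing at 5000 UMIs gave 95 and 139 with stretch, G1 of 74.0% without, and sums of 1.47 in both. Splitting each cell's UMIs gave 51 and 342 between libraries, and sums of 1.201 with and 1.32 without stretch. The not stretched limit in both gave 294 and 461 with stretch, 53 and 343 between libraries, G1 of 74.5% and a sum of 1.84. The top 20% gave 97 and 103, and 140 and 225, G1 of 66.3% and 70.8%, and sums of 1.52 and 1.49. The top 5% gave 371 lower with stretch, 54 and 347 between libraries, G1 of 73.7% and 80.5%, and sums of 1.76 and 1.75. Totals without MT- and ribosomal protein genes gave 290 higher with and 380 without stretch, 56 between libraries, and sums of 1.68 and 1.66. Genes that turned sign did so without the APOA1-high cells (with stretch APOA1 0.061, APOA2 0.14, AGR2 0.080, FABP1 0.18, FN1 0.064 and SERPINA1 0.65; without stretch FABP1 0.30 and SERPINA1 0.60), at 10% MT- UMIs with stretch (APOA1 0.077, FABP1 0.21, FN1 0.39), at 10000 UMIs with stretch (FABP1 0.077) and under the not stretched limit with stretch (APOA1 0.020). Of named genes past 1.5-fold, 31 of 78 with stretch, 39 of 86 without and 8 of 12 between libraries stayed so under every alternative; causes were not tested.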

Other observations

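SAT1, the polyamine-catabolising acetyltransferase gene, picked after its values were seen, ran from 669 CPM in the lowest to 2038 CPM in the highest of 10 bins of stretched cells by share, and from 780.2 to 3530 CPM in the not stretched library. Nuclear-encoded OXPHOS genes had medians of −0.22 with stretch and −0.27 without, while mitochondrially encoded genes had medians of 0.23 and 0.21; of the 32 and 13 genes tested, none was past 1.5-fold in either library. CCNL1, a cyclin of splicing kinases, was the member of the splicing list past 1.5-fold in both libraries, at 102 against 60.3 CPM with stretch and 127 against 68.2 CPM without. SLC7A5, an amino acid transporter gene, was lower in both, at 46.5 against 77.3 CPM and 52.2 against 86.6 CPM.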
